A study of Arabidopsis thaliana with 114 samples.

Results

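Roots of Arabidopsis thaliana seedlings were compared 15 min after a supply of nitrogen (N) with roots 15 min after a supply of KCl, by RNA sequencing. The comparison holds 6 libraries, 3 N and 3 KCl, of the 57 root and 57 shoot libraries of the series, and its members were taken by organ, treatment and time in the sample titles. All seedlings had grown in liquid with 1% sucrose and 1 mM KNO3. The N roots then received 60 mM nitrogen, made up of 20 mM KNO3 and 20 mM NH4NO3, and the KCl roots received 20 mM KCl. Nitrate, ammonium, chloride and total salt therefore differed together between the groups, and their effects cannot be told apart. The time labels carry no unit and were read as minutes, and the letters N and C of the root titles were read by the treatment tags of the series. The labels do not say that the 3 replicates were separate cultures, so a p-value rests on a spread between libraries that may be technical. For the root contrasts, p-values and SE take this spread from all 57 root libraries together, not from the 6 compared alone. Roots are whole organs here, so fewer cells of a type and less RNA per cell cannot be told apart.

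Nitrate is taken up by transporters of the NPF and NRT2 families and reduced in the cytosol by nitrate reductase and then in the plastid by nitrite reductase. In roots the plastid step runs on ferredoxin that is reduced with NADPH from the oxidative pentose phosphate pathway. Nitrate is also a signal: in Arabidopsis it is sensed by the transceptor NPF6.3 and the NLP transcription factors, and it switches on genes of its own use together with repressors that later damp them.

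Among the 57 root libraries, the 12 from 10 and 15 min stood apart from all others before any contrast of N with KCl. The first principal component held 59.1% of the variance, with scores of 136 to 200 in those 12 and -59.8 to -36.4 in the others. KCl roots at 15 min, against KCl roots at 20 min, had 1640 of 22185 tested genes (7.39%) more than 4-fold lower and 32 more than 4-fold higher. Against 10 min, 2 were lower and 1 higher by that size. Low genes at 15 min included members of the lists below, such as ARR5 (0.874 CPM, counts scaled to a common library size, against 21.2 at 20 min), ANR1 (3.51 against 35.6) and AMT1;1 (1.78 against 14.6). Replicate 2 of both arms also differed from its partners in the reads placed at several sites, with 58.1 (N) and 104 (KCl) per 100 gene counts, against 13.3 to 19.5 in the other 4 libraries. Gene counts ran from 20686385 to 26052909 in the N libraries and from 27934103 to 39105783 in the KCl libraries. The part of these differences in the results was not tested, and list counts are also given without both replicate 2 libraries where they differ.

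**Figure D1:**
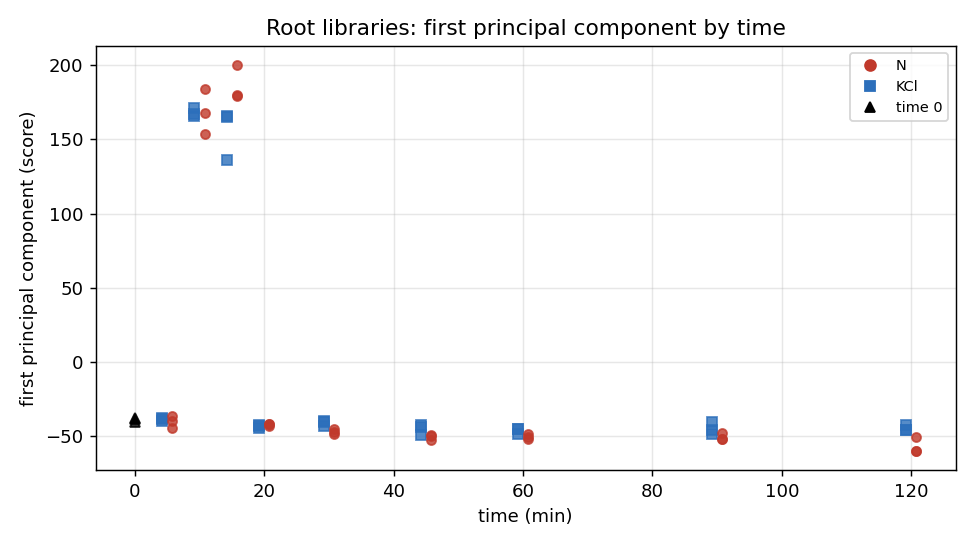
First principal component score (vertical axis) of each root library against time after supply (horizontal axis, min), with N as circles, KCl as squares and time 0 as triangles. The 12 libraries at 10 and 15 min lie between 136 and 200, and all other root libraries lie between -59.8 and -36.4.

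Many root genes had changed with N after 15 min, and genes that use and regulate nitrate were among the largest rises. Of 22185 genes, 5602 (25.3%) passed an adjusted p of 0.05 in edgeR's quasi-likelihood test, 1833 of them higher in N (8.26%) and 3769 lower (17%). Changes were mostly small in both directions, with a median absolute log2 change of 0.759 in the lower and 0.6 in the higher genes. On the log2 scale, 1088 of the lower (28.9%) and 484 of the higher genes (26.4%) changed by more than 1. Changes of more than 2 were found in 194 higher and 101 lower genes. The median log2 change of all genes was -0.08. The share of calls that were higher depended on scaling and on the libraries fitted, at 32.7% here, 42.4% with RLE size factors, 43.3% in DESeq2 and 47.9% in a fit of the 6 libraries alone. Without both replicate 2 libraries 2242 genes passed (603 higher, 1639 lower), of which 2141 were among the 5602 with the same direction. Leaving out N replicate 2 alone gave 3093 calls and KCl replicate 1 alone 3637.

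The falls varied with gene length. With genes ranked by exonic length in 5 equal groups, from the shortest to the longest, the median log2 change went from 0.08 to -0.19. The share of genes called lower went from 7.4% to 25.7%, and the share called higher from 9.8% to 5.18%. At 10 min the share called lower went from 5.7% to 9.72% and the share called higher from 9.58% to 4.84%. At 20 min the median also went from 0.11 to -0.07, but 1.02% of the shortest and 0.363% of the longest genes were called lower. The part of length in the lower calls was not tested.

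**Figure D2:**
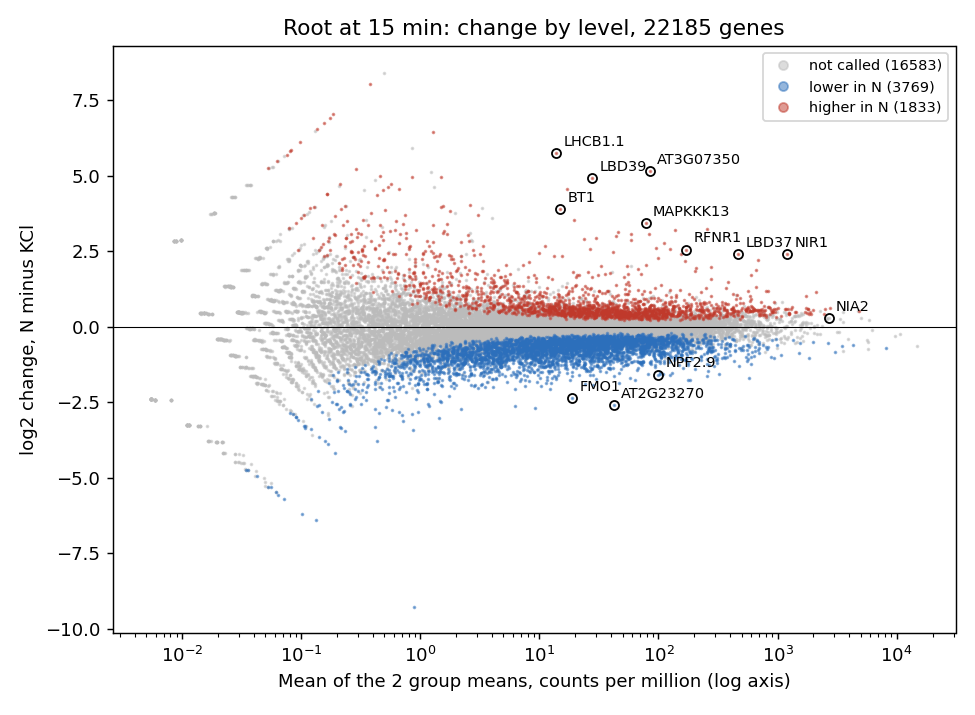
Log2 change, N minus KCl, at 15 min (vertical axis) against the mean of the group means in CPM (horizontal log axis) for the 22185 genes tested, coloured by call, with 12 genes ringed. LBD39, BT1, MAPKKK13 and NIR1 sit above 2, and AT2G23270 and FMO1 below -2, while most lower calls lie between 0 and -1.

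Of the genes of nitrate and nitrite reduction, 5 of 10 tested members were called higher and 0 lower at an adjusted p of 0.05. Over all genes these shares were 8.26% and 17%. The list had 6 at an unadjusted p under 0.05, and 4 were called higher without both replicate 2 libraries. Its median log2 change was 0.43, against -0.08 over all genes. NIR1, nitrite reductase, held 1792, 1988 and 2289 CPM in N replicates 1 to 3 and 383, 303 and 454 in the KCl replicates. All 3 N libraries lay far above all KCl libraries. The log2 change was 2.41 ± 0.26 (SE, n = 3 and 3, edgeR adjusted p = 3.282e-09). UPM1 makes the siroheme cofactor that nitrite reductase needs, and it held 385, 430 and 521 CPM in N against 113, 97.1 and 127 in KCl (log2 1.99 ± 0.19, edgeR adjusted p = 2.513e-10).

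The pair of nitrate reductase genes differed in their calls. NIA1 held 2081, 2236 and 2588 CPM in N and 1108, 1087 and 1245 in KCl (log2 1.005 ± 0.24, edgeR adjusted p = 0.001658). NIA2 held 3024, 3009 and 2792 CPM against 2501, 2377 and 2434, so its groups did not overlap, yet its log2 change of 0.27 ± 0.26 missed the threshold in edgeR (adjusted p = 0.4764). Of all genes, 16.3% had every N library above every KCl library and 25% every one below. NIA2 passed in the fit of the 6 libraries alone with adjusted p = 0.0124 at its lowest, and the difference between NIA1 and NIA2 was not tested. CNX2, of molybdenum cofactor synthesis, rose from a mean of 12.02 to 20.3 CPM (log2 0.75 ± 0.12, edgeR adjusted p = 4.334e-06).

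Of the genes of reductant supply, 7 of 13 tested members were called higher and 0 lower, against 8.26% and 17% of all genes. The list had 8 at an unadjusted p under 0.05 and a median log2 change of 1.19. Without both replicate 2 libraries the list also had 7 higher calls. RFNR1, a root ferredoxin-NADP reductase, held 249, 306 and 325 CPM in N and 51.5, 45.7 and 53.3 in KCl. It had the smallest p of all genes tested (log2 2.55 ± 0.20, edgeR adjusted p = 3.287e-12). Its relative RFNR2 held 879, 1098 and 1379 CPM against 239, 197 and 287 (log2 2.22 ± 0.21, edgeR adjusted p = 2.397e-10).

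Enzymes of the oxidative pentose phosphate pathway moved with them. G6PD3, a plastid glucose-6-phosphate dehydrogenase, held 120.4, 168 and 201 CPM in N against 25.1, 23.1 and 32.8 in KCl (log2 2.59). PGD3 and PGD1, 6-phosphogluconate dehydrogenases, rose by 1.86 ± 0.18 and 1.49 ± 0.14 on the log2 scale, and PGD3 reached 947, 1014 and 1154 CPM. G6PD2 and the root ferredoxin FD3 rose by 1.63 and 1.19. The isoforms G6PD4, G6PD5, G6PD6 and PGD2 were not called, with log2 changes from -0.28 to 0.22.

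The list with the highest median held the repressors and co-regulators of the nitrate response. Of 14 tested genes, 11 were called higher and 0 lower, against 8.26% and 17% of all genes. The median log2 change of the list was 2.34, and 10 of its genes were called higher without both replicate 2 libraries. The summed level of the list was 1727 to 2265 CPM in N and 278 to 459 CPM in KCl. It contains the GARP proteins HRS1, HHO1 to HHO3, HHO5 and HHO6, the LOB domain proteins LBD37 to LBD39, and the BTB-TAZ proteins BT1 to BT5. BT3, BT4 and HHO6 were not called.

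LBD39 held 43.8, 60.9 and 56.6 CPM in N and 1.72, 1.61 and 2.03 in KCl, the largest change of the list (log2 4.90 ± 0.47, edgeR adjusted p = 1.878e-10). LBD38 held 390, 505 and 477 CPM against 37.9, 37.7 and 72.0 (log2 3.22 ± 0.32), and LBD37 held 690, 859 and 809 against 116, 115 and 217 (log2 2.4 ± 0.24). These LBD proteins are known in Arabidopsis as repressors of nitrate transport and assimilation genes. The KCl library of replicate 3 was the highest control for both, though still far below every N library.

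HRS1 held 164, 226 and 256 CPM in N and 32.7, 30.4 and 45.2 in KCl (log2 2.57 ± 0.24, edgeR adjusted p = 8.582e-11). HHO1 held 173, 276 and 299 against 17.2, 19.8 and 43.6 (log2 3.21 ± 0.38), and HHO3 held 134, 186 and 176 against 31.3, 32.9 and 37.9 (log2 2.28 ± 0.20). HRS1 and its HHO relatives, also named NIGT1 proteins, repress NRT2.1 and phosphate-starvation genes in Arabidopsis. Among the BT genes, BT1 and BT5 rose from means of 1.86 and 5.64 CPM to 28.0 and 41.5 CPM (log2 3.90 ± 0.52 and 2.88 ± 0.25). BT2, which restrains NRT2 expression, held 4.15, 4.001 and 4.22 CPM against 2.05, 3.02 and 0.962. Its log2 change of 1.06 ± 0.38 (edgeR adjusted p = 0.03227) lost the call in 7 of 16 alternatives, with adjusted p up to 0.182.

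**Figure D3:**
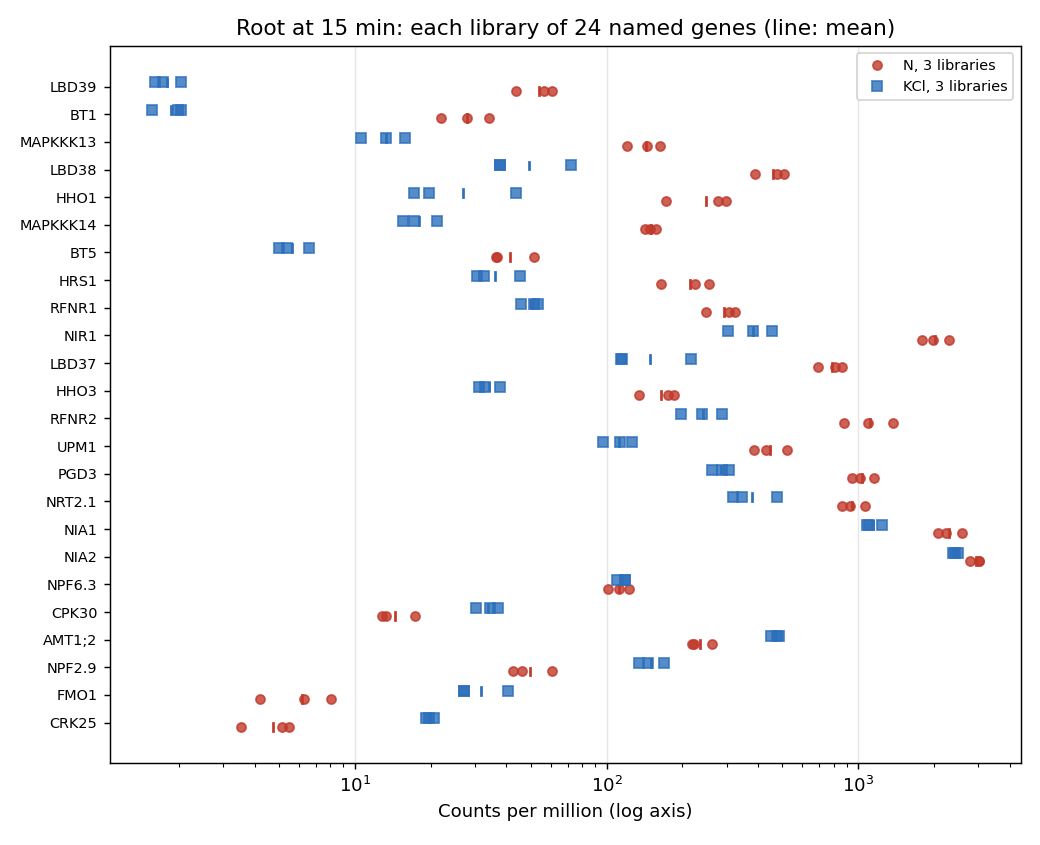
CPM (horizontal log axis) of 24 named genes (vertical axis) in each of the 3 N libraries (circles) and 3 KCl libraries (squares) at 15 min, with a short line at each group mean. From LBD39 down to NIA1 the N libraries lie to the right of the KCl libraries, NPF6.3 overlaps, and from CPK30 down to CRK25 the N libraries lie to the left.

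The 250 bases before the annotated gene start were read for these genes from RefSeq's TAIR10.1 genome. They were searched on both strands for GAATC, the bases that HRS1-type proteins are known to bind. Of the 11 called repressors and co-regulators, 10 held it, against 38.8% of all 27443 protein-coding nuclear genes and 40.9% of the genes higher in N. HHO2 was the exception. Of the 12 called genes of nitrate reduction and reductant supply, 6 held GAATC (50%). A match describes the window and was not tested. Of 5 motifs searched, GAATNTTC was in 3 of the 11 (HRS1, HHO1 and LBD37; 5.34% of all genes) and can overlap the first motif. TGACG was in 3 of the 11 (HHO2, HHO3 and LBD37; 18.6% of all genes). The spaced half-sites of the nitrate-responsive element were in 0 of the 11 (8.02% of all genes), and a longer form of that element was also in 0 (0.146%). The windows of HRS1, HHO1, HHO2 and LBD37 to LBD39 are shown as members of both repressor families that rose, with and without the match; capitals mark GAATC, read on either strand. They lie, in this order, at chr1:4556628-4556877 (plus strand), chr3:9412802-9413051 (plus), chr1:25781551-25781800 (plus), chr5:26906525-26906774 (minus), chr3:18514016-18514265 (plus) and chr4:17640926-17641175 (minus), each printed 5′ to 3′ toward the gene.
HRS1: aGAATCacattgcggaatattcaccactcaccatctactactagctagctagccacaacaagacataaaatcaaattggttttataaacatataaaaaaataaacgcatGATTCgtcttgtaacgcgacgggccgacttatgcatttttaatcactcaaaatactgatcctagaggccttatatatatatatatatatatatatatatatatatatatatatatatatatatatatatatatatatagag
HHO1: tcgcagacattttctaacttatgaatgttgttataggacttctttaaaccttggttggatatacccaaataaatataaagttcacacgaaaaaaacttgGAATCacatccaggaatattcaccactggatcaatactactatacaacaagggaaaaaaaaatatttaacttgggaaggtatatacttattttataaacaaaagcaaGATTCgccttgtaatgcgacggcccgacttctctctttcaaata
HHO2: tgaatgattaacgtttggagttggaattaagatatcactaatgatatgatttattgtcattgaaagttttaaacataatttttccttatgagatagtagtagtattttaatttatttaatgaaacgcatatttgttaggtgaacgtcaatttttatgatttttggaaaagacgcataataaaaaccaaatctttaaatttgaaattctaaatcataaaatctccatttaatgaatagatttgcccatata
LBD37: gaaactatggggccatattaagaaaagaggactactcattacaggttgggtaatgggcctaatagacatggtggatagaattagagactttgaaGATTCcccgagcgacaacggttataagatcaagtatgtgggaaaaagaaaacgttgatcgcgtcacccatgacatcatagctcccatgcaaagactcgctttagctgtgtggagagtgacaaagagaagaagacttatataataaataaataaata
LBD38: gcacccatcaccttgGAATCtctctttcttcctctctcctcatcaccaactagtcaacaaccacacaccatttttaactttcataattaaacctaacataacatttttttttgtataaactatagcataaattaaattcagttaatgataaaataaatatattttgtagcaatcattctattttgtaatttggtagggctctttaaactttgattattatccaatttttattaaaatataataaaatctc
LBD39: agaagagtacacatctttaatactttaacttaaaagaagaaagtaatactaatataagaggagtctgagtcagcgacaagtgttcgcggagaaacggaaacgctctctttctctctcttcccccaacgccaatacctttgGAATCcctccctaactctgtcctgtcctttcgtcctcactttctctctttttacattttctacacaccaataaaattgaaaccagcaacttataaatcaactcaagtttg
Of the 6 windows, those of HRS1 and HHO1 hold 2 matches each, those of the LBD genes 1 each, and that of HHO2 0.

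Nitrate-signalling kinases split into strong rises and smaller falls. Of 11 tested genes 4 were higher and 4 lower, against 8.26% and 17% of all genes, with a median log2 change of -0.35. The counts were 3 and 2 without both replicate 2 libraries. MAPKKK13 held 121, 163 and 145 CPM in N and 13.3, 10.6 and 15.9 in KCl (log2 3.43 ± 0.28, edgeR adjusted p = 5.027e-12). MAPKKK14 held 149, 157 and 142 CPM against 17.2, 15.5 and 21.3 (log2 3.05 ± 0.25, edgeR adjusted p = 6.045e-12). Both are nitrate-induced kinases upstream of MKK3 in Arabidopsis. MKK3 itself was low in all 6 libraries, with means of 0.445 CPM in N and 0.641 CPM in KCl. In KCl roots at 20 min MKK3 stood at 10.2 CPM. Against KCl roots at 10 min, 0 of 298 tested list genes, MKK3 among them, were more than 4-fold lower at 15 min. The cause of its low level was not tested.

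CPK10, CPK30 and CPK32, the calcium-dependent kinases that phosphorylate NLP7, were all lower in N. CPK30 held 17.36, 12.8 and 13.3 CPM in N and 34.4, 36.9 and 30.3 in KCl (log2 -1.23 ± 0.18, edgeR adjusted p = 2.68e-06). CPK32 and CPK10 fell by 0.70 and 0.51 on the log2 scale. CIPK23, which phosphorylates NPF6.3, rose by 0.24 ± 0.09. CIPK3 rose by 0.71 ± 0.16. At 20 min CPK30 stood at 0.05, and the difference of its N effect, 15 minus 20 min, was called (-1.28, edgeR adjusted p = 0.001454).

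Of the activators of the nitrate response, 6 of 23 were called higher and 4 lower, with a median of -0.07. Without both replicate 2 libraries 2 and 1 were. Of all genes 8.26% were called higher and 17% lower, so the lower activators lay near the share of all genes. NLP3 rose most among the called, with 383, 424 and 429 CPM in N and 149, 111 and 155 in KCl (log2 1.58 ± 0.29, edgeR adjusted p = 6.543e-05). AFB3, an auxin receptor that nitrate induces in roots, held 147, 187 and 177 CPM against 84.4, 84.9 and 91.2 (log2 0.97 ± 0.11, edgeR adjusted p = 2.192e-08). NLP4, NLP5, NLP6 and NRG2 were called lower, by 0.38 to 0.60 on the log2 scale. NLP7, the main nitrate sensor among them, held 150, 148 and 154 CPM in N and 188, 183 and 169.6 in KCl and did not pass (log2 -0.26, edgeR adjusted p = 0.1936).

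Nitrate transporters were called in both directions, 5 higher and 5 lower of 21 tested, against 8.26% and 17% of all genes. Their median was -0.22. Without both replicate 2 libraries 0 were higher and 1 lower. NRT2.1, the main high-affinity transporter of roots, held 862, 926 and 1060 CPM in N and 477, 317 and 345 in KCl. Its groups did not overlap (log2 1.32 ± 0.38, edgeR adjusted p = 0.008263, and 0.0814 without both replicate 2 libraries). NRT3.1, the partner protein of NRT2.1, held 652, 848 and 755 CPM against 462, 366 and 419 (log2 0.85 ± 0.21, edgeR adjusted p = 0.001941, and 0.0708 without both replicate 2 libraries). NRT2.2 is a near copy beside NRT2.1, and its reads may be shared. NPF6.3 held 112, 101 and 123 CPM in N and 118, 118 and 111 in KCl, and its groups overlapped (log2 -0.04 ± 0.22, edgeR adjusted p = 0.9043).

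Among the lower transporters, NPF2.9, which loads nitrate into root phloem, held 42.4, 46.3 and 60.6 CPM in N and 146, 135 and 169 in KCl. Every N library was under every KCl library (log2 -1.59 ± 0.36, edgeR adjusted p = 0.001096, and called under all 16 alternatives). NPF3.1, NPF2.10, SLAH3 and the vacuolar exchanger CLCA fell by 0.53 to 0.78 on the log2 scale. Ammonium uptake and assimilation had 3 of 19 higher and 3 lower, against 8.26% and 17% of all genes, with a median of -0.26. Without both replicate 2 libraries 1 was higher and 0 lower, and limma voom called 0 higher and 3 lower. The transporter gene AMT1;2 held 223, 218 and 263 CPM in N against 485, 476 and 449 in KCl (log2 -1.001 ± 0.28, edgeR adjusted p = 0.007303, and 0.0884 without both replicate 2 libraries). AMT1;3 and the glutamate synthase gene GLU2 were also lower. ASN1, asparagine synthetase, held 4.74, 1.87 and 2.16 CPM in N and 0.695, 0.535 and 0.427 in KCl, at a low level in every library (log2 2.38 ± 0.65, edgeR adjusted p = 0.005587).

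Cytokinin genes had 6 of 28 higher and 4 lower, against 8.26% and 17% of all genes, with a median of -0.17. The higher ones covered synthesis and response. The counts were 5 and 1 without both replicate 2 libraries. The 4 lower calls also came to 1 in limma voom, to 1 without N replicate 3 or any single KCl replicate, and to 2 without N replicate 1 or 2. IPT3, which nitrate induces and which makes cytokinin precursors, held 7.23, 5.82 and 8.12 CPM in N and 1.79, 0.924 and 2.99 in KCl (log2 1.86 ± 0.39, edgeR adjusted p = 0.0004135). ARR3, an A-type response regulator, held 50.2, 84.6 and 55.9 CPM against 21.6, 26.3 and 25.8 (log2 1.38 ± 0.24, edgeR adjusted p = 3.144e-05). CRF2, CRF3 and CRF4, cytokinin response factors, rose by 0.88, 0.78 and 0.71, whereas the cytokinin oxidase genes CKX1, CKX3, CKX4 and CKX5 were called lower. CKX5 held 27.3, 26.5 and 27.3 CPM in N and 40.2, 46.0 and 51.3 in KCl (log2 -0.76 ± 0.17), and it was called under all 16 alternatives.

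Other hormone lists changed in few members, where 8.26% of all genes were called higher and 17% lower. Auxin response had 1 of 17 higher and 2 lower (1 and 1 without both replicate 2 libraries): IAA2 held 42.1, 45.2 and 56.3 CPM in N against 16.8, 14.5 and 12.4 in KCl (log2 1.72 ± 0.22, edgeR adjusted p = 1.657e-07), while in KCl its level was 79.9 CPM at 20 min. Abscisic acid and osmotic stress had 2 of 16 higher and 1 lower (1 and 1 without both replicate 2 libraries). The catabolic CYP707A3 rose from 4.603, 3.99 and 4.56 CPM in KCl to 23.57, 18.7 and 24.1 in N (log2 2.33 ± 0.29, edgeR adjusted p = 6.227e-08). NCED3, of abscisic acid synthesis, held 2.55, 2.93 and 2.16 CPM in N and 7.05, 5.98 and 5.38 in KCl (log2 -1.27 ± 0.32, edgeR adjusted p = 0.003118). Jasmonate genes had 1 of 15 higher, AOC3 (log2 0.68 ± 0.13), and 2 lower, MYC2 and LOX4, which passed in 9 and 6 of 16 alternatives. The list had 1 higher and 0 lower without both replicate 2 libraries.

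Touch and rapid stress genes were called 4 higher and 3 lower of 22, against 8.26% and 17% of all genes. Without both replicate 2 libraries 2 were higher and 1 lower, and leaving out single libraries gave 1 lower, or 2 without KCl replicate 2. SZF1, a zinc-finger regulator of salt stress, held 328, 334 and 289 CPM in N and 166, 119.7 and 141 in KCl (log2 1.16 ± 0.19, edgeR adjusted p = 1.062e-05). The cold regulators CBF1 and CBF2, adjacent and similar genes whose reads may be split, rose from means of 0.0620 and 1.03 CPM to 0.959 and 3.39 CPM. Heat shock genes had 6 of 11 higher and 0 lower, with 10 at an unadjusted p under 0.05 and a median of 1.34, and 5 were called without both replicate 2 libraries. HSP22.0 held 2.902, 1.28 and 4.27 CPM in N and 0.166, 0.146 and 0.214 in KCl (log2 3.97 ± 1.04, edgeR adjusted p = 0.003991). HSP18.2 held 10.5, 9.71 and 11.0 CPM against 3.21, 5.06 and 4.10. At 10 and at 20 min no heat shock gene passed in edgeR (lowest adjusted p = 0.3098 and 0.1969). The differences of the N effect from these times did not pass either (lowest adjusted p = 0.139 and 0.267). Small heat shock genes resemble each other in sequence.

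**Figure D4:**
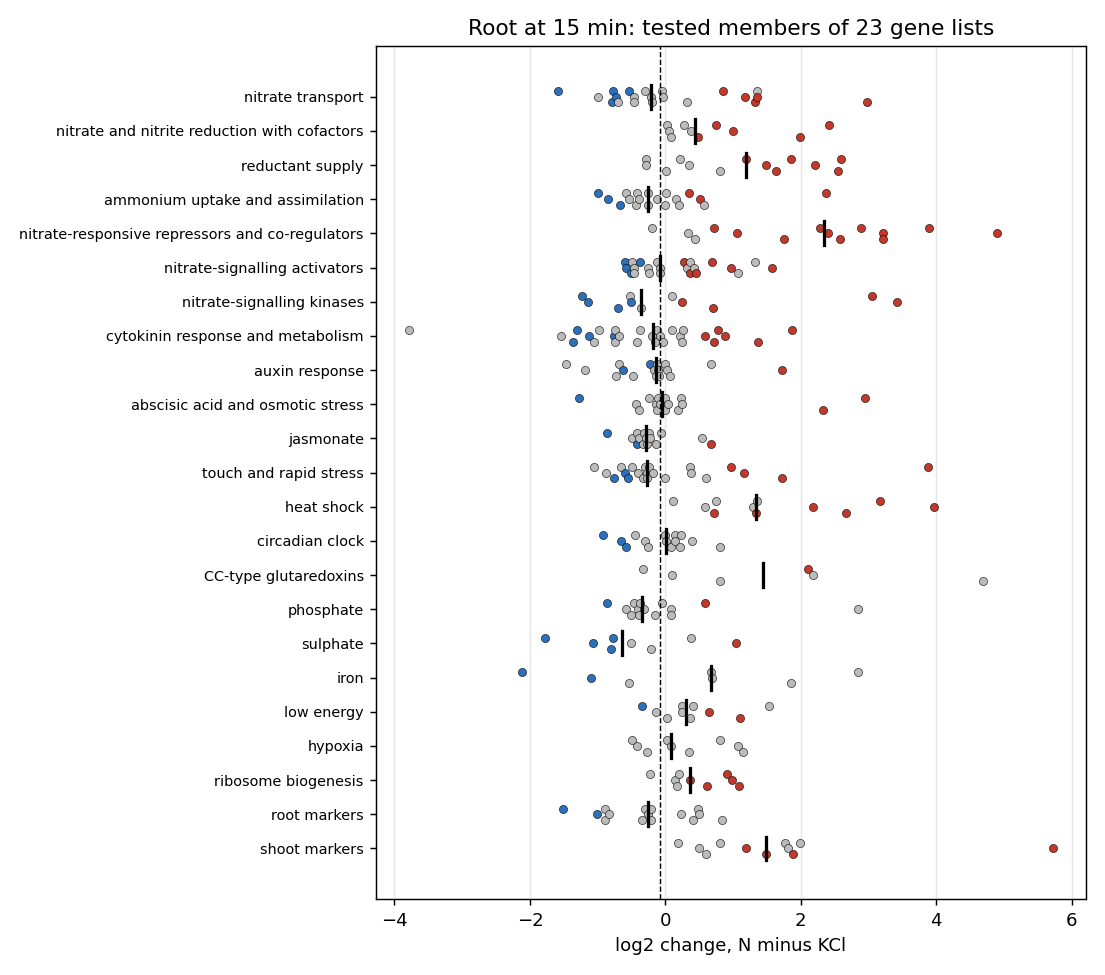
Log2 change, N minus KCl, at 15 min (horizontal axis) of every tested member of the 23 gene lists (vertical axis), red where called higher, blue where called lower and grey where not called, with a bar at each list's median and a dashed line at the median of all genes. The repressor list has the highest median, at 2.34, and sulphate the lowest, at -0.64.

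Sulphate genes were called 4 lower and 1 higher of 8, against 17% and 8.26% of all genes, with a median of -0.64. APR1, the reductase of sulphate assimilation, held 127, 105 and 114.3 CPM in N and 216, 186 and 199 in KCl (log2 -0.80 ± 0.25, edgeR adjusted p = 0.01435). The low-sulphur marker genes LSU1 and LSU2 and the transporter SULTR1;1 were also lower, SULTR1;2 was higher, and without both replicate 2 libraries 1 of the 8 was called. The lower calls also came to 1 without N replicate 1, N replicate 3, KCl replicate 1 or KCl replicate 3 alone. LSU1 lost its call in 9 of 16 alternatives, SULTR1;1 in 5, LSU2 in 4 and APR1 in 3. SULTR1;1 was near 0, with means of 0.437 CPM in N and 1.503 in KCl. Phosphate had 1 of 14 higher, SPX4, whose N and KCl libraries overlap, and 1 lower, SPX3. SPX4 lost its call in 5 of 16 alternatives and SPX3 in 12, and limma voom called 0 of the 14. Iron had 2 of 7 lower, FIT and FRO2, both under 6 CPM in all 6 libraries. FIT lost its call in 7 of 16 alternatives and FRO2 in 7 of 14. The list had 0 lower without both replicate 2 libraries, in limma voom, and without N replicate 1, N replicate 2 or KCl replicate 1 alone. CC-type glutaredoxins had 1 of 6 higher, GRXS6, which held 3.02, 2.24 and 4.17 CPM in N against 0.662, 0.584 and 0.926 in KCl (log2 2.103 ± 0.37, edgeR adjusted p = 4.08e-05).

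Clock genes had 0 of 15 higher and 3 lower, namely LHY, RVE8 and LNK1, with 4 at an unadjusted p under 0.05. Of all genes 8.26% were called higher and 17% lower, so the lower clock calls lay near the share of all genes. Without both replicate 2 libraries 2 clock genes were lower. RVE8 held 19.2, 15.9 and 20.3 CPM in N and 35.04, 34.7 and 34.7 in KCl (log2 -0.92 ± 0.17, edgeR adjusted p = 0.000102). Hypoxia genes had 0 of 9 called in edgeR, with 2 at an unadjusted p under 0.05, 1 called in DESeq2, 0 in limma voom, and 4 higher and 2 lower in edgeR on the 6 libraries alone. Low-energy genes had 2 of 10 higher, TPS8 and TPS10, and 1 lower, ATG8F, which lost its call in 13 of 16 alternatives. This list had 1 higher and 0 lower without both replicate 2 libraries. Ribosome biogenesis had 5 of 9 higher and 0 lower, and 2 without both replicate 2 libraries. Of these NOP56, a core protein of the ribosome assembly machinery, held 539, 1116 and 674 CPM in N and 365, 449.9 and 418 in KCl. The highest value came from N replicate 2, and without that library NOP56 was not called (adjusted p up to 0.115 over its 16 alternatives). PES held 338, 366 and 348 CPM against 217, 245 and 224 and was called in all of them (log2 0.62 ± 0.12, edgeR adjusted p = 0.0002783).

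Markers of root and shoot tissue were read in the same libraries. Root markers had 0 of 15 higher and 2 lower, the endodermal CASP1 and the epidermal WER, against 17% of all genes lower. WER was low in KCl at 15 min, at 1.12 CPM against 12.1 in KCl at 20 min. Its call was lost in 7 of 16 alternatives, and 1 root marker was lower without both replicate 2 libraries. The summed level of the 15 was 715 to 782 CPM in N and 996 to 1167 in KCl. Most of that difference came from CASP1, and 13 of the 15 were not called. CASP1 held 215, 258 and 271 CPM in N and 509, 601 and 391 in KCl (log2 -1.01 ± 0.21, edgeR adjusted p = 0.000443). ESB1 was at 0 in N replicate 3 and SKOR in KCl replicate 2, and both were near 0 throughout. Shoot markers, which are genes of photosynthesis, had 4 of 11 higher and 0 lower, against 8.26% and 17% of all genes. The summed level of the 11 was 223 to 592 CPM in N and 153 to 195 in KCl. LHCB1.1, a chlorophyll-binding protein gene, held 26.1, 47.2 and 8.23 CPM in N and 0.695, 0.632 and 0.214 in KCl, against 948 to 984 CPM in N shoots. Among the N libraries, replicate 2 was highest for all 11, and without both replicate 2 libraries 0 were called. None of the 11 was at 0, and their part in the calls was not tested.

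Over all genes, the largest rises with at least 5 CPM and separate groups were led by LHCB1.1 and AT3G07350. AT3G07350, annotated only as a DUF506 protein, held 134, 183 and 177 CPM in N and 1.79, 2.97 and 9.01 in KCl (log2 5.15 ± 0.58, edgeR adjusted p = 9.751e-09). AT5G26200, a mitochondrial carrier family protein, held 32.8, 37.5 and 37.7 CPM against 2.38, 3.84 and 3.13 (log2 3.54 ± 0.51). LHCB1.1 lost its call in 6 of 16 alternatives. CAB3 is a near copy of LHCB1.1, and their reads may be shared. LHCB1.1, CAB3 and ECS1 were highest in N replicate 2 and were not called without both replicate 2 libraries. The other members of this group, BT1, LBD38, LBD39, HHO1 and MAPKKK13, were called without them.

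Among genes with at least 5 CPM and separate groups, the 10 largest falls lay outside the lists. AT2G23270 held 14.5, 14.8 and 6.48 CPM in N and 84.5, 59.7 and 72.8 in KCl (log2 -2.61 ± 0.35, edgeR adjusted p = 3.599e-07). FMO1, which makes the immune signal N-hydroxypipecolic acid, held 6.28, 4.22 and 8.02 CPM against 40.5, 27.2 and 27.3 (log2 -2.36 ± 0.45, edgeR adjusted p = 0.0001442). CRK25, a cysteine-rich receptor-like kinase gene, held 5.15, 3.52 and 5.45 CPM against 20.7, 19.8 and 19.1 (log2 -2.08 ± 0.47). All N libraries lay under all KCl libraries in these genes because they were selected so, and this held in 25% of all genes tested. AT4G22030 (an F-box protein), AT3G02840 (an ARM repeat protein), AT1G14550 (a peroxidase), GH9C1 (a glycosyl hydrolase), AT3G13760, CYP706A2 and PUM4 fell by 1.96 to 2.68 on the log2 scale. AT1G14550 was the one of the 10 not called without both replicate 2 libraries.

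The same contrast was set beside those at 5, 10 and 20 min, which share no libraries with it. N changed 436 genes at 5 min (1.97%; 1.2% higher, 0.766% lower). The count was 3866 after 10 min (17.4%; 8.02% higher, 9.41% lower), and 834 after 20 min (3.76%; 2.68% higher, 1.08% lower). Genes called in the same direction at 10 and 15 min numbered 1738, which is 45% of the calls at 10 min and 31% of those at 15 min. With 20 min the number was 539, 64.6% of the calls at 20 min and 9.62% of those at 15 min. With 5 min it was 53, 12.2% of the calls at 5 min and 0.946% of those at 15 min. Over 22185 genes the log2 changes at 15 min had Pearson's r = -0.126 with those at 5 min, 0.365 with 10 min and 0.432 with 20 min, where genes are not independent replicates. Among genes lower at 15 min 176 (4.67%) were also lower at 20 min, and among the higher genes 363 (19.8%) were also higher then.

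The difference of the N effect from 10 to 15 min was called for 299 genes (1.35%), 18 of them more positive (0.0811%) and 281 more negative (1.27%) at 15 min. This count was not stable. It was 0 in limma voom (2974 at an unadjusted p under 0.05) and 0 in edgeR on the 12 libraries alone (2061 at an unadjusted p under 0.05), 177 with RLE size factors, 689 in DESeq2 and 8 without both replicate 2 libraries. Leaving out single libraries gave 43 without N replicate 2, 631 without N replicate 3, 43 without KCl replicate 1 and 147 without KCl replicate 2 at 15 min. At 10 min it gave 53, 883 and 129 without N replicates 1, 2 and 3, and 143 and 2152 without KCl replicates 1 and 2. From 15 to 20 min the difference was called for 799 genes (3.6%), 46 more positive (0.207%) and 753 more negative (3.39%) at 15 min. This fell to 346 in limma voom, 372 in the libraries compared alone, 209 without both replicate 2 libraries, 277 without N replicate 2 and 343 without KCl replicate 1. Without N replicate 1, KCl replicate 2 or KCl replicate 3 at 20 min it was 456, 460 and 443. The contrast with 20 min crosses the separation of the 10 and 15 min libraries described above. The part of that separation in it was not tested.

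For the leading nitrate genes these differences were not called. In the order 10, 15 and 20 min, HRS1 had log2 changes of 1.64, 2.57 and 2.81, and LBD39 had 4.37, 4.90 and 3.57. NIR1 had 2.201, 2.41 and 2.57. Levels of these genes in KCl differed between times as well: NIR1 averaged 289, 380.3 and 210.3 CPM in KCl, and 1331, 2023 and 1252 CPM in N. NPF6.3, not called at 15 min, was called at 20 min with a log2 change of 0.86 (edgeR adjusted p = 0.01374), but the difference of -0.90 between these times was not (edgeR adjusted p = 0.09681).

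**Figure D5:**
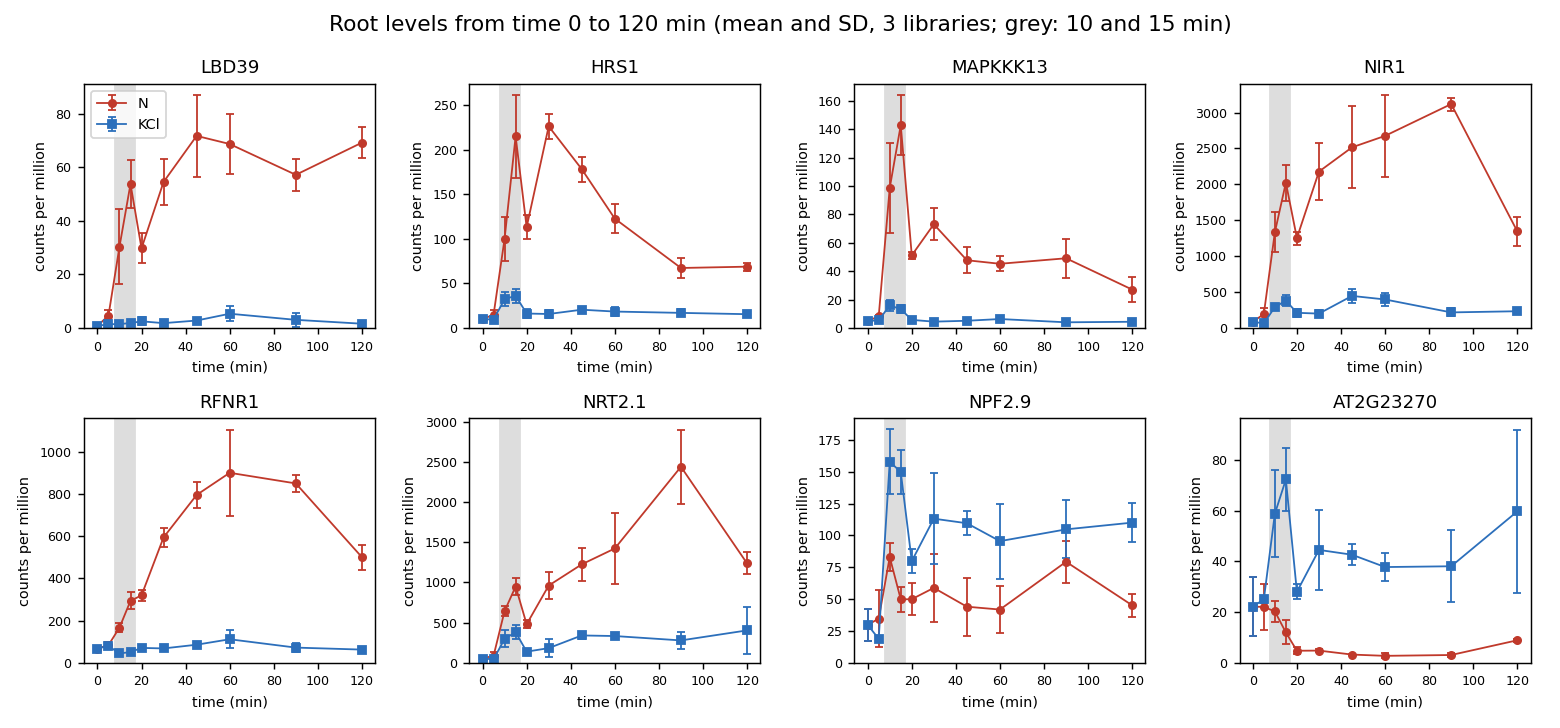
Mean CPM (vertical axes) with SD bars for 3 libraries per group against time after supply (horizontal axes, min), N as circles and KCl as squares, for 8 genes; grey marks 10 and 15 min. In NIR1 the mean in N is 2023 at 15 min and 1252 at 20 min, and in KCl 380.3 and 210.3; NPF2.9 and AT2G23270 lie higher in KCl.

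Shoots were compared at the same time. Their libraries held 0 reads placed at several sites, against 13.3 to 104 per 100 gene counts in the root libraries at 15 min. Counts of plastid and mitochondrial genes were 0% in the shoot and 0.81% to 3.4% in the root. Shoot KCl replicate 1 had 5710272 gene counts, against 15247596 to 21972052 in the N shoots. The part of these differences in the organ contrast was not tested. In a fit of the 12 libraries of both organs, N changed 680 of 21007 genes in the shoot (3.24%), 527 higher (2.51%) and 153 lower (0.728%). Of the genes higher in the root, 180 (10.2% of those fitted) were also higher in the shoot, and of the lower genes 20 (0.535%) were also lower. The difference between organs was itself called for 3038 genes (14.5%), 1648 more positive in the shoot (7.85%) and 1390 more negative (6.62%). Without both root replicate 2 libraries it was called for 1884, and without root KCl replicate 1 for 1833. Which direction held the majority turned with the setting: 54.2% were more positive in the shoot here, 71.8% in a fit of all libraries of both organs, 46.8% with RLE size factors and 46.7% in DESeq2.

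MAPKKK14 held 197, 179 and 171 CPM in N shoots and 4.16, 3.69 and 5.75 in KCl shoots. Its log2 change was 2.16 larger in the shoot than in the root (edgeR adjusted p = 0.0001202), with lower values in KCl shoots than in KCl roots. MAPKKK13 (difference 1.59, edgeR adjusted p = 0.001411), NIR1 (1.03, edgeR adjusted p = 0.008631) and UPM1 (1.05, edgeR adjusted p = 0.003584) also changed more in the shoot. BT5 changed less there (-1.65, edgeR adjusted p = 0.003223), with 4.51, 5.90 and 5.38 CPM in N shoots. RFNR1, RFNR2, HRS1 and LBD39 showed no called difference, with differences of -0.43, -0.42, 0.85 and -0.25. Among the falls, CRK25 (2.39, edgeR adjusted p = 0.0005491) and PUM4 (1.51, edgeR adjusted p = 0.0003828) differed between organs, and in shoots CRK25 stayed under 3 CPM.

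Against time 0, both arms had most genes called: 15243 (68.7%) for KCl and 15627 (70.4%) for N. These comparisons share the 3 time 0 libraries, 1 of which is called shoot in its source name and root in its title and organ tag. They cannot be told apart from the separation of the 10 and 15 min libraries described above. For LBD39 the mean was 0.768 CPM at time 0, 1.79 in KCl and 53.8 in N, whereas for NPF2.9 it was 29.7 at time 0, 149.9 in KCl and 49.8 in N.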

How the data were processed

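The 114 files hold read counts per gene as deposited by the authors, with 28712 gene identifiers each and 5 closing lines that name no gene and were left out. PolyA RNA was sequenced after dUTP marking of the second strand, according to the labels' protocols. TAIR10, TopHat2 (version 2), HTSeq and limma are named in the submitters' processing notes; their roles and the strand setting of the counting are not given in the sources used here. Genes that overlap, lie antisense or have near copies can share or lose reads. Symbols came from RefSeq's TAIR10.1, which names 28007 identifiers; promoter windows were read from that assembly by its own annotation and joined by locus identifier.

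Counts were tested as deposited in edgeR 4.0.16 (R 4.3.3). The 57 root libraries were fitted with 1 mean for each of 19 groups, so that all groups share the spread. Genes were kept by filterByExpr (minimum count 10, minimum total 15), scaled by TMM and tested by the quasi-likelihood F-test with Benjamini-Hochberg adjustment at 0.05. The organ difference used the 12 libraries at 15 min. CPM are counts scaled to the TMM library size. Root files were also tested with limma 3.58.1 (voom) and DESeq2 1.42.0.

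The 335 genes of the 23 lists and the members were chosen with earlier results of these data known. Named genes are the called list members with the smallest p (at most 4 a list), and the 10 highest and 10 lowest called changes with at least 5 CPM and separate groups. To these were added the 5 genes with the smallest p for each difference (10 min, 20 min, shoot) and a fixed set of nitrate genes (NIA1, NIA2, NIR1, NRT2.1, NPF6.3, HRS1, LBD37 to LBD39 and BT2). Other list members named were chosen after their values were seen. Replicates of each group differed by more than sampling noise (chi-square per degree of freedom 11.2 to 116).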

Additional observations from a re-analysis of the deposited data

Results flagged for a closer look

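Of the genes called for a difference between contrasts, the 5 with the smallest p for each are listed because the effect of N differed between times or organs by a test of the difference itself.

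From 10 to 15 min the difference of the N effect (15 minus 10 min, log2) was -2.81 in AT5G18760 (a RING/U-box protein, 1.86 at 10 min and -0.95 at 15 min), -1.98 in AT5G23920, -2.12 in PGL34 (plastoglobulin), -1.31 in AT4G10390 (a protein kinase family gene) and -1.06 in PP2-A15 (a phloem protein). Adjusted p-values in edgeR ran from 1.841e-05 to 0.00169. All 5 differences lost the call in limma voom and in the fit of the 12 libraries alone, and those of PP2-A15 and AT4G10390 also without both replicate 2 libraries. Levels were low, at 0.652 CPM in N and 1.24 in KCl for AT5G18760 at 15 min.

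Against 20 min (15 minus 20 min) the log2 difference was -1.57 in AT1G08400 (RINT-1 family), -1.54 in AT2G27460 (sec23/sec24 transport family), -1.16 in AT3G58760, -1.13 in AXR1 and -1.42 in AT2G06025. Adjusted p-values in edgeR ran from 1.501e-08 to 5.008e-06, and all 5 were called under all 20 alternatives. Every alternative keeps the separation of the 15 from the 20 min libraries described above, and the part of that separation was not tested.

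In the shoot minus the root at 15 min the difference was -3.36 in AT5G01740, 2.63 in AT5G09800, 1.75 in AT5G63130, -2.54 in AT1G80380 and 1.75 in MDAR6, with edgeR adjusted p from 4.825e-05 to 0.0001194. AT5G01740, an NTF2 family gene, held 45.3, 57.9 and 56.8 CPM in N roots and 5.27, 9.19 and 6.55 in KCl roots, but 34.1, 39.7 and 36.7 in N shoots and 57.5, 38.2 and 44.0 in KCl shoots. AT5G09800, an ARM repeat gene, held 391, 332 and 375 CPM in N shoots and 21.7, 23.57 and 35.02 in KCl shoots. All 5 were called under all 20 alternatives.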

How the results depend on the processing

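The number of genes called between N and KCl was 3406 in a fit of the 12 libraries at 10 and 15 min (1589 higher, 1817 lower) and 2242 without both replicate 2 libraries, alternatives chosen after seeing the data. It lay between 3093 and 5023 when single libraries were left out, and between 4095 and 5945 under the other settings. The difference from 10 min was 177 with RLE size factors, 0 in limma voom, 689 in DESeq2, 0 in the libraries compared alone and 8 without both replicate 2 libraries, and 43 to 2152 with single libraries left out. The difference from 20 min was 346 in limma voom, 372 in the libraries compared alone and 209 without both replicate 2 libraries, and 277 to 918 with single libraries left out. Between organs it was 1884 without both root replicate 2 libraries and 1833 to 3046 with single libraries left out. Against time 0 the counts stayed between 14380 and 15451 (KCl) and between 14402 and 15844 (N). Of 107 named genes called, 65 kept their call under all alternatives tried, 42 lost it in at least 1, and 0 reversed. The causes were not tested, beyond the loss of libraries by construction.

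Replicate numbers are shared between groups, but the labels do not say that they pair samples. The deviations of same-numbered libraries correlated at 0.097, 0.089 and 0.04, so the numbers were not taken as pairs, although every library correlated best with its own number. A replicate block gave 5576 calls in the root fit and 5639 in the 6 libraries alone, 270 and 772 for the differences from 10 and 20 min, 3092 between organs, and 15240 and 15625 against time 0. Depth limits genes with few counts: AT5G18760 had as few as 10 counts in 1 library at 15 min.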
